A study of Homo sapiens with 14 samples.

Results

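Interferon-stimulated genes are transcribed after a cell senses interferon, and 48 of them were followed here in 2 human prostate cancer cell lines. The members were taken by symbol from a fixed list of 8 RNA sensors, 3 interferon regulatory factors (IRFs) and 37 effectors, and all 48 were found among the 24199 features of the DU145 table and the 44591 genes of the LNCaP table. DDX58 is the listed symbol of the gene now called RIGI. The list was selected on the results of both contrasts described here, so the values and calls of its members are given as a description, with no test.

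In DU145 cells, 3 libraries came from cells with a control hairpin (shCON) and 3 from cells with PAX6 knocked down by a short hairpin RNA (shPAX6). PAX6 is a homeobox transcription factor. Per the methods, knockdown lines were stable subclones made by lentiviral infection, 2 PAX6 hairpins existed, and which of them these libraries carry is not given in the sources used here. In LNCaP cells, 1 library came from parental cells and 1 from enzalutamide-resistant cells kept in 20 µM of enzalutamide, an antiandrogen used against prostate cancer (LNCaP-ENZ). The series text gives 30 days of treatment for this line. The labels do not say that the DU145 replicates were separate cultures, so their spread may be technical. No interferon treatment is stated for any group.

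When a cell binds interferon, receptor-bound JAK kinases phosphorylate STAT proteins, which join IRF9 and bind interferon-stimulated response elements (ISREs) near the start of target genes. RNA sensors such as the proteins of DDX58 and IFIH1 detect viral or misplaced RNA and lead to new interferon, while effectors block viral entry, translation or replication. Several sensors and IRFs are themselves induced by interferon, and tumour cells often carry such genes at a raised level without any infection.

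PAX6 itself was lower after knockdown. Its FPKM (a read density scaled by transcript length and library size) was 0.839, 1.23 and 1.57 with the control hairpin and 0.0153, 0.274 and 0.0778 with the PAX6 hairpin, and the groups did not overlap. Its log2 fold change was -2.69 (SE 0.49), with an adjusted p of 0.0539 in limma. In LNCaP cells PAX6 had 11 counts in the parental and 4 in the LNCaP-ENZ library. Of 8 leukocyte markers, which would mark cells rich in these genes, PTPRC, CD3E and TYROBP were listed at 0 in all 6 DU145 libraries. CD14, at 0.353 to 0.922 FPKM, and LST1, at 0.494 to 1.88 FPKM, were above 0 in all 6. The 8 summed to 1.77 to 2.16 FPKM in shCON and to 1.16 to 2.84 FPKM in shPAX6. In the LNCaP libraries the 8 summed to 2.49 and 3.34 CPM (counts scaled to a common library size) in parental and LNCaP-ENZ cells. There PTPRC had 23 and 28 counts and CD3E 15 and 19 counts, while LST1 and TYROBP had 0 counts in both. Of 5 fibroblast and endothelial markers, COL3A1 and PDGFRA had 0 counts in both LNCaP libraries, and the 5 summed to 39.3 CPM in parental and 14.5 CPM in LNCaP-ENZ cells. VWF, a clotting factor of endothelial cells, had 345 and 27 counts, and COL1A1, a collagen chain, had 456 and 231 counts. The same 5 summed to 0.395 to 0.688 FPKM in shCON and 0.406 to 0.819 FPKM in shPAX6 cells. Of the DU145 libraries, shPAX6 replicate 1 stood apart, with a summed FPKM of 570790 against 448901 to 503696 in the other libraries and 17170 features above 0 against 17926 to 18301.

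The promoters of these genes share a short motif. RefSeq promoters (GRCh38.p14, from 250 bases before to 50 after the transcription start) were matched for 39 of the 48 members, giving 52 promoters. The ISRE core GAAANNGAAA was searched on both strands, its reverse complement being TTTCNNTTTC, and overlapping matches were counted. It was found in 28 of the 39 members (71.8%), against 4.38% of the 27305 genes of the promoter table. A match describes letters and not binding, and the list was made of genes known for their interferon response. The 54 matches lay at 49 distinct positions, since some promoter windows overlap, and PARP9 and DTX3L share 1 core between their divergent starts. The match farthest upstream began at position -196 from the start. The following 80-base stretches end at or before the base preceding the start, and capitals mark the core. IFIT1 and IFITM3 are shown because they were called lower in shPAX6 cells, ISG15 and IFI6 as the members with the highest FPKM in DU145 cells, DDX60 as a sensor, HERC5 and BST2 as genes on opposite sides of the LNCaP contrast, and OAS1 as the member with the largest decrease, whose promoter held no core.
IFIT1, chr10:89392478-89392557, plus strand: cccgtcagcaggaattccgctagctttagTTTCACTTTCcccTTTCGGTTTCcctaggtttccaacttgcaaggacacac
IFITM3, chr11:320861-320940, minus strand: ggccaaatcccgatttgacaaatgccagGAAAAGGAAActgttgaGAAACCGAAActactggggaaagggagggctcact
ISG15, chr1:1013352-1013431, plus strand: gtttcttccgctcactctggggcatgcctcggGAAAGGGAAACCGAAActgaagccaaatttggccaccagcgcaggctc
IFI6, chr1:27672273-27672352, minus strand: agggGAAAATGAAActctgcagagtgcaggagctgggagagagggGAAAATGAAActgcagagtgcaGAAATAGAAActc
DDX60, chr4:168318779-168318858, minus strand: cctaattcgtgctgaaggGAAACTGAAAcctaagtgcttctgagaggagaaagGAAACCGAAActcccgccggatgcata
HERC5, chr4:88456984-88457063, plus strand: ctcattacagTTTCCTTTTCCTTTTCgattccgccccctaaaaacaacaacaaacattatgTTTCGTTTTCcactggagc
BST2, chr19:17405713-17405792, minus strand: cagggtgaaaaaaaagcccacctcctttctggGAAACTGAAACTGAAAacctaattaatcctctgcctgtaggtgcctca
OAS1, chr12:112906882-112906961, plus strand: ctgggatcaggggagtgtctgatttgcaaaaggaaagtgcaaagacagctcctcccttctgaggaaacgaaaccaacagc
ISG15 and BST2 each carried 2 overlapping cores on the strand of the gene, and HERC5 carried overlapping cores on the other strand. The 11 members with a promoter but no core were OAS1, DDX58, IRF1, IRF9, HERC6, UBE2L6, IFI35, SP110, XAF1, SAMD9L and CMPK2. Of these, 6 (OAS1, DDX58, IFI35, SP110, XAF1 and CMPK2) held both half-sites with 1 base between them. With that spacing allowed, 34 of 39 members matched, against 7.83% of the genes in the table. Among members past the expression filter, the median log2 fold change in DU145 was -0.86 for the 24 with the core and -0.57 for the 8 without it. The former ran from -1.90 (IFI44) to 0.26 (BST2) and the latter from -3.45 (OAS1) to -0.12 (DDX58), so the groups overlapped. In LNCaP the corresponding medians of the log2 ratio were -0.10 over 18 and 0.61 over 8 members. The groups without the core include genes with the 1-base spacing, such as OAS1 and DDX58. A link between the core and either contrast was not tested.

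**Figure D1:**
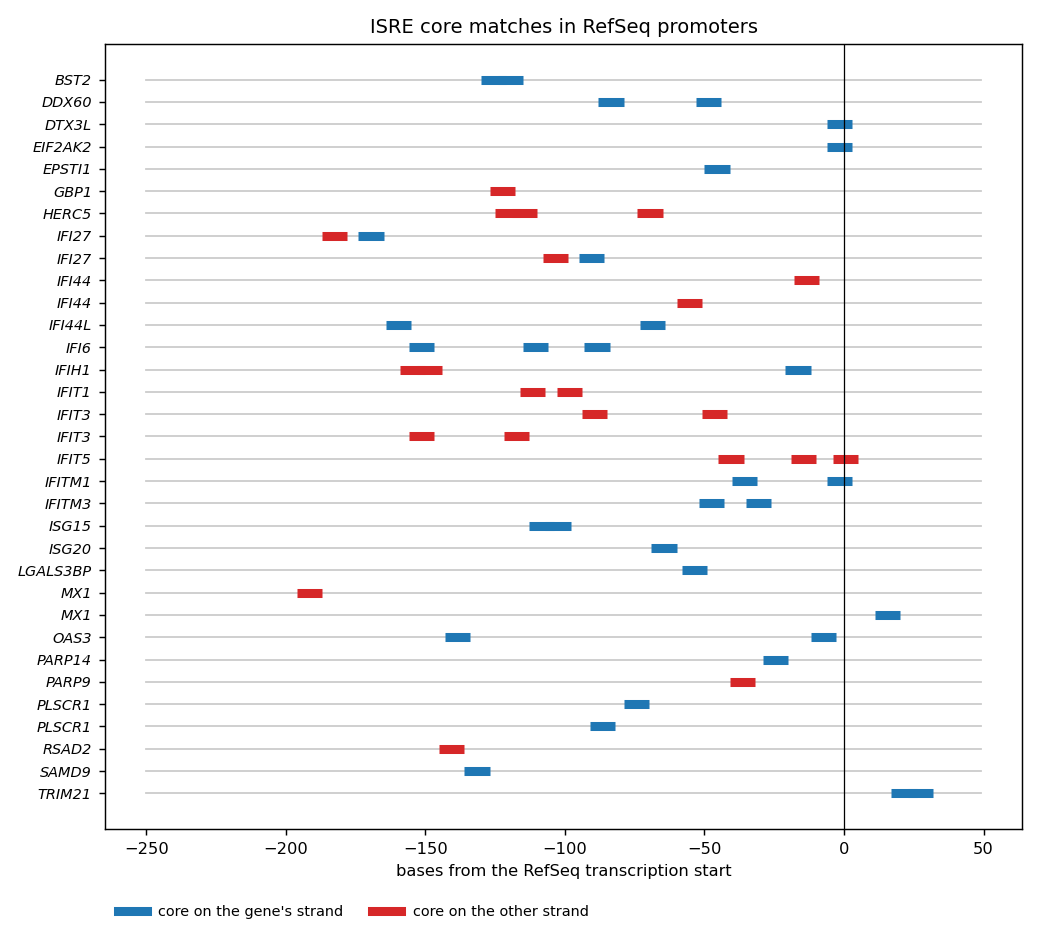
Positions of the ISRE core in the RefSeq promoters that hold it, 1 line for each promoter (a gene with several starts has several lines), in bases from the transcription start at 0. Blue bars are cores on the strand of the gene and red bars cores on the other strand, and the farthest begins at -196.

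The first comparison asked how PAX6 knockdown moved these genes in DU145 cells. Of the 48 members, 39 passed the filter of a mean of at least 0.5 FPKM, 38 of them were lower in shPAX6 cells, as were 62.9% of all features tested, and 1, BST2, was higher. limma on log2(FPKM + 0.1), across 13574 features, called 10 of the 39 lower at an adjusted p under 0.05 and none higher, against 1.02% of all features called lower and 0.177% called higher; at an unadjusted p under 0.05, in either direction, the count was 26, against 18.3% of all features. For 26 of the 39 members the shPAX6 libraries all lay below the lowest shCON library, and for 0 all lay above the highest, against 20.0% and 6.70% of all features. A log2 fold change of -1 or lower was found for 17 members and 3.74% of all features. The median log2 fold change was -0.86 over the members and -0.12 over all features tested. These shares describe a list selected on this contrast and nothing is read from them. With the library medians set equal, 36 of 39 members stayed lower and 7 were called. The count of calls moved with single libraries, from 10 to 0 without shCON replicate 1 or 3, to 1 without shCON replicate 2, to 2 without shPAX6 replicate 3, and to 16 or 17 without shPAX6 replicate 1 or 2. Over all features the count was 163, and without the same libraries 0, 0, 5, 10, 924 and 899.

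Among the sensors, the oligoadenylate synthetase family showed the largest differences. OAS1, which makes the small messenger that activates RNase L, measured 1.56, 1.88 and 1.54 FPKM in shCON and 0, 0.182 and 0.0474 FPKM in shPAX6. All 3 shPAX6 values were close to 0, and the log2 fold change of -3.45 (SE 0.42) depended on the pseudocount, from -1.31 with 1 FPKM to -5.12 with 0.01 FPKM. OASL, a relative without that enzyme activity that binds and supports the DDX58 protein, measured 14.8, 15.1 and 18.7 FPKM in shCON and 2.73, 2.10 and 2.36 FPKM in shPAX6. Its groups lay far apart, with a log2 fold change of -2.71 (SE 0.18). OAS3 had a wider spread, with 12.0, 12.5 and 16.0 FPKM against 3.20, 9.60 and 6.23 FPKM, and was not called. OAS2, under the filter, went from 0.380 to 0.771 FPKM in shCON down to 0.0297 to 0.0899 FPKM in shPAX6. OAS1, OAS3 and OAS2 are neighbours on chromosome 12 (GRCh37, 113344582 to 113449528), and OASL lies apart on the same chromosome at 121458095 to 121477045.

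The cytosolic RNA sensors showed smaller differences than OAS1 and OASL. DDX58 measured 2.22, 1.91 and 2.18 FPKM in shCON and 1.54, 2.59 and 1.76 FPKM in shPAX6, so the groups overlapped (log2 fold change -0.12, SE 0.25). IFIH1, whose protein MDA5 binds long double-stranded RNA, measured 2.12, 1.47 and 1.93 FPKM against 0.599, 1.26 and 0.893 FPKM. Its groups did not overlap, and the log2 fold change was -0.97 (SE 0.31). EIF2AK2, the kinase PKR that stops translation, measured 6.21, 4.40 and 6.54 FPKM against 2.67, 6.93 and 4.16 FPKM. The highest of these 6 values was a shPAX6 library. DDX60, a helicase under the filter, went from 0.632 to 0.867 FPKM in shCON to 0.0975 to 0.271 FPKM in shPAX6. Across the 6 sensors past the filter the median log2 fold change was -1.08. Of these sensors 2, OAS1 and OASL, were called lower, against 1.02% of all features.

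The 3 IRFs were lower on average, and none was called. IRF7, the factor that drives interferon alpha genes, measured 6.84, 8.75 and 10.2 FPKM in shCON and 4.90, 2.87 and 3.93 FPKM in shPAX6 (log2 fold change -1.13, SE 0.25). IRF1, which can induce many of these genes by itself, measured 10.7, 15.5 and 12.4 FPKM against 8.25, 9.71 and 9.13 FPKM (log2 fold change -0.49, SE 0.18). For IRF7 and IRF1 the groups did not overlap. IRF9, a DNA-binding partner of STAT proteins, measured 1.24, 1.68 and 7.50 FPKM against 0.540, 1.02 and 1.68 FPKM. Here shCON replicate 3 stood apart and the groups overlapped, and without that library the log2 fold change of IRF9 went from -1.27 to -0.51.

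The 30 effectors past the filter had a median log2 fold change of -0.75, and 8 of them were called lower, against 1.02% of all features. Among the IFIT genes, whose proteins bind foreign RNA ends and block translation, 3 of 4 were called lower. IFIT1 measured 23.7, 22.7 and 23.3 FPKM in shCON and 6.33, 6.38 and 7.69 FPKM in shPAX6, with a log2 fold change of -1.76 (SE 0.14). The log2 fold changes of IFIT2 and IFIT3 were -1.67 (SE 0.26) and -1.61 (SE 0.18). IFIT5 lies in the same cluster on chromosome 10 (GRCh37, 91061706 to 91180759) and had a log2 fold change of -0.17 (SE 0.30), with 2.77, 2.61 and 3.20 FPKM against 1.58, 3.17 and 3.16 FPKM. Only shPAX6 replicate 1 was low for IFIT5.

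Among membrane and secreted effectors, IFITM3, which stops enveloped viruses from fusing in endosomes, measured 35.5, 42.7 and 45.8 FPKM in shCON and 17.0, 7.67 and 11.2 FPKM in shPAX6 (log2 fold change -1.85, SE 0.28). IFITM2, its close paralogue, measured 37.5, 38.7 and 42.1 FPKM against 17.0, 8.73 and 12.4 FPKM (log2 fold change -1.68, SE 0.23). These paralogues are nearly identical in sequence, so the split of reads between them is uncertain. IFITM1, the member of this family at the cell surface, was low in both groups at 0.556 to 1.65 and 0.366 to 1.13 FPKM. LGALS3BP, a secreted glycoprotein that binds galectins, had a log2 fold change of -1.33 (SE 0.17). BST2, which tethers budding virus particles to the cell, measured 1.23, 1.19 and 0.580 FPKM against 2.00, 0.732 and 1.05 FPKM, so the groups overlapped, and its log2 fold change of 0.26 (SE 0.43) turned negative in at least 1 alternative, to -0.11.

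The MX GTPases, which trap viral nucleocapsids, both lay below the control range. MX1 measured 16.1, 15.8 and 19.7 FPKM in shCON and 4.30, 5.65 and 4.82 FPKM in shPAX6 (log2 fold change -1.78, SE 0.17). MX2, its neighbour on chromosome 21, measured 0.804, 0.856 and 1.05 FPKM against 0.168, 0.306 and 0.0812 FPKM (log2 fold change -1.89, SE 0.37) and was not called. The guanylate-binding proteins GBP1 and GBP2 had log2 fold changes of -0.48 and -0.47, and RSAD2 and CMPK2 stayed at or under 0.149 FPKM in all libraries. IFI44, of less known function, measured 3.11, 2.19 and 2.33 FPKM against 0.441, 0.638 and 0.760 FPKM (log2 fold change -1.90, SE 0.28).

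ISG15, a ubiquitin-like protein that is attached to other proteins, was the most abundant member in DU145 cells. It measured 216, 246 and 274 FPKM in shCON and 174, 71.8 and 105 FPKM in shPAX6 (log2 fold change -1.15, SE 0.30). The groups did not overlap, and shPAX6 replicate 1 lay well above the other two shPAX6 libraries. Its conjugating enzyme UBE2L6, its ligase HERC5 and its protease USP18 had log2 fold changes of -0.58, -0.59 and -0.56. None of the 5 genes of this system was called. For 4 of them all shPAX6 libraries lay below all shCON libraries, against 20.0% of all features. USP18 reads can be shared with near-identical copies. Of the PARP and ubiquitin ligase members, PARP9, DTX3L and TRIM21 had log2 fold changes of -1.08, -0.86 and -0.68, and PARP14 overlapped (-0.26, SE 0.36). PARP9 and DTX3L overlap head to head on chromosome 3, and whether strand was used in counting is not given in the sources used here.

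**Figure D2:**
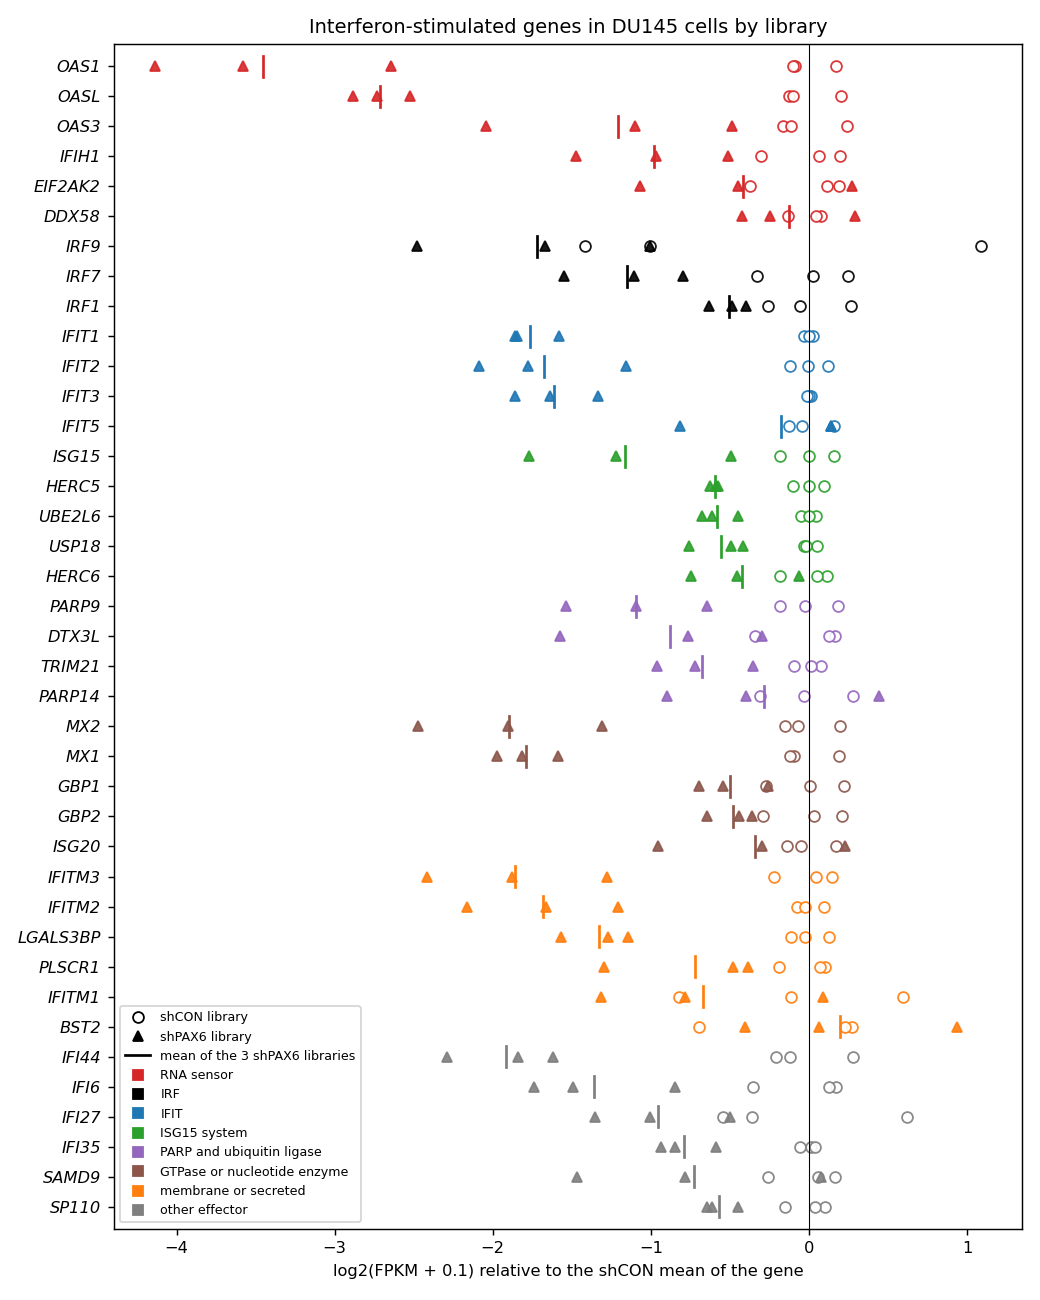
The 39 members past the filter in DU145 cells, grouped by role, with each library's log2(FPKM + 0.1) relative to the log2 of the gene's shCON mean + 0.1. Open circles are the 3 shCON libraries, filled triangles the 3 shPAX6 libraries and vertical bars the mean of the shPAX6 points; for 26 genes no triangle reaches the circles, and OAS1 and OASL lie farthest to the left.

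The shPAX6 libraries were not alike in which members were lowest. shPAX6 replicate 1 was the lowest of the 3 for 22 of the 39 members and the highest for 14, among them ISG15, IFI6, IFITM2, IFITM3, IRF7 and BST2. The median GC content was 43.0% for the former and 56.1% for the latter. Over all 13574 features, replicate 1 was the lowest for 57.8% and the highest for 30.2%, with median GC contents of 45.1% and 55.4%. With expression corrected for GC content, over the 12009 features with a known value, 12 members were called lower. The part of GC content in the level of single members was not tested.

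The wider pathway was described from 6 further lists of 61 genes that are not members, tested with limma over all features. These lists were chosen with earlier results of these data known. Their calls and adjusted p-values are therefore a description and not independent support. None of the 21 interferon ligand genes passed the filter, and IFNB1 and IFNG reached at most 0.0491 and 0 FPKM in any DU145 library. All 6 interferon receptor genes and all 6 JAK and STAT genes passed the filter, and 0 were called. The unadjusted limma p was under 0.05 for 1 of the receptors and 2 of the JAK and STAT genes, against 18.3% of all features. STAT2 measured 13.9, 14.1 and 15.9 FPKM against 2.68, 11.6 and 8.79 FPKM, with no overlap and a wide spread (log2 fold change -1.15, SE 0.49, limma adjusted p = 0.266). JAK1 measured 14.5, 12.4 and 15.0 FPKM against 6.39, 17.5 and 11.2 FPKM (log2 fold change -0.37, SE 0.33, limma adjusted p = 0.628).

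Of the 14 sensing and adaptor genes, 10 passed the filter. All 10 were lower in shPAX6 cells, as were 62.9% of all features, and 2 were called lower, against 1.02% of all features. DHX58, the RIG-I-like helicase LGP2, measured 2.31, 1.86 and 3.11 FPKM in shCON and 0.286, 0.535 and 0.415 FPKM in shPAX6 (log2 fold change -2.30, SE 0.31, limma adjusted p = 0.0250). STING1, the adaptor of the cytosolic DNA sensor, measured 27.1, 27.7 and 30.2 FPKM against 13.5, 10.6 and 12.8 FPKM (log2 fold change -1.20, SE 0.14, limma adjusted p = 0.0198). CGAS, that sensor itself, did not pass the test, with 6.96 to 7.48 FPKM in shCON and 5.98 to 8.32 FPKM in shPAX6 (log2 fold change -0.06, limma adjusted p = 0.894). Of 5 further IRF family genes and 6 inhibitors past the filter, 0 were called. The nearest were PTPN6, a phosphatase that damps JAK signalling (log2 fold change -0.72, limma adjusted p = 0.0551), and IRF5 (log2 fold change -1.09, limma adjusted p = 0.0675).

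A further list held 45 interferon-responsive genes outside the 48, likewise chosen with earlier results known. Of its 34 genes past the filter, 27 were lower and 7 higher, against 62.9% of all features lower. Among these 34, 2 were called lower and 0 higher, against 1.02% and 0.177% of all features. Their median log2 fold change was -0.27, against -0.12 over all features tested. PARP10, an ADP-ribosyltransferase, had a log2 fold change of -1.39 (SE 0.18, limma adjusted p = 0.0233), and TYMP, thymidine phosphorylase, one of -1.53 (SE 0.25, limma adjusted p = 0.0397). The largest log2 fold changes of the list were -1.57 (HELZ2) and -1.53 (TYMP) on the lower side and 1.35 (IFI30) and 0.21 (NT5C3A) on the higher side. Of these, HELZ2 (SE 0.32, limma adjusted p = 0.0696), IFI30 and NT5C3A were not called. IFI30 measured 0.149, 2.75 and 3.24 FPKM in shCON and 5.03, 1.95 and 3.62 FPKM in shPAX6, so its groups overlapped (SE 0.95, limma adjusted p = 0.511). Of 17 alternatives, 11 kept the call of DHX58, 10 that of STING1, 9 that of PARP10 and 8 that of TYMP, with adjusted p-values from 0.00320 to 0.282 over the 4 genes.

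The second comparison set LNCaP-ENZ cells beside parental LNCaP cells. The methods speak of replicates for each cell line, but the deposited table has 1 column an arm, and whether a column is 1 library or a pool is not given in the sources used here. With 1 column an arm there is no replicate check, and the intervals given cover counting error only. The libraries held 20468001 and 17945722 counts, and 3 counts, taken as the floor, equal 0.147 and 0.167 CPM. Of the 48 members, 31 had a mean of at least 1 CPM, 16 of them higher and 15 lower in LNCaP-ENZ cells. At least a 2-fold difference on the CPM + 0.1 scale was found for 6 members upward and 3 downward, against 1.84% and 9.57% of the 14767 genes compared. The median log2 ratio was 0.01 over the members and -0.15 over all genes compared. Scaling changed the split, to 20 higher and 11 lower with TMM factors and to 23 and 8 with median-of-ratios size factors, which raise the log2 ratios by 0.15 and 0.17. For 10 members the 95% exact Clopper-Pearson interval lay above 0, for 7 below 0, and for 14 it held 0. The matching shares over all genes compared are not given here, and nothing is read from these counts.

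Among the sensors, the OAS genes were again at one end, here the higher one. OAS1 went from 36 counts in the parental to 107 counts in the LNCaP-ENZ library (log2 ratio 1.71, 95% interval 1.20 to 2.35). OASL had 41 and 74 counts (log2 ratio 1.01, 0.47 to 1.63) and OAS3 had 489 and 832 counts (log2 ratio 0.95, 0.79 to 1.12). OAS2 had 7 and 11 counts, too few to separate the libraries. EIF2AK2 was lower, with 392 and 182 counts (log2 ratio -0.91, -1.18 to -0.66). DDX58 with 34 and 36 counts and IFIH1 with 24 and 19 counts did not differ beyond counting error.

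The IRFs moved in both directions. IRF9 had 56 and 111 counts (log2 ratio 1.15, 0.70 to 1.67) and IRF1 had 198 and 344 counts (log2 ratio 0.98, 0.73 to 1.25). IRF7 had 253 and 143 counts (log2 ratio -0.63, -0.94 to -0.33), and it stayed negative under the other scalings, between -0.70 and -0.46.

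The largest differences were among the effectors. LGALS3BP went from 491 to 2257 counts (log2 ratio 2.39, 2.25 to 2.53). GBP2, a guanylate-binding GTPase, had 9 and 47 counts (log2 ratio 2.33, 1.53 to 3.79). BST2 had 128 and 354 counts (log2 ratio 1.64, 1.36 to 1.96). In the other direction, HERC5, the ligase that attaches ISG15, had 98 and 17 counts (log2 ratio -2.22, -3.17 to -1.59). IFITM1 had 684 and 246 counts (log2 ratio -1.28, -1.50 to -1.07), and IFITM2 had 250 and 106 counts (log2 ratio -1.04, -1.39 to -0.71). IFITM3 had 2906 and 2264 counts, and its log2 ratio of -0.17 reached 0.00 with median-of-ratios size factors. ISG15, IFI6, USP18, TRIM21 and PARP9 had 183 to 334 counts in each library and log2 ratios between -0.16 and -0.01, all with intervals that held 0 and all above 0 with median-of-ratios size factors.

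Members under 1 CPM were described by their counts. IFIT2 had 32 and 4 counts (log2 ratio -2.37, -4.77 to -1.31), whereas IFIT3 had 15 and 18 counts. IFIT1, which passed the filter at 1.27 and 1.28 CPM, had 26 and 23 counts. RSAD2, the enzyme viperin, had 3 and 18 counts (log2 ratio 2.16, 1.00 to 5.18), and IFI27 had 1 and 10 counts (log2 ratio 2.14, 0.70 to 8.95). IFI44L had 6 and 0 counts, which is at least 1.75-fold lower against the floor of 3 counts in the LNCaP-ENZ library. EPSTI1, MX2 and SAMD9L were at or under 3 counts in both libraries.

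**Figure D3:**
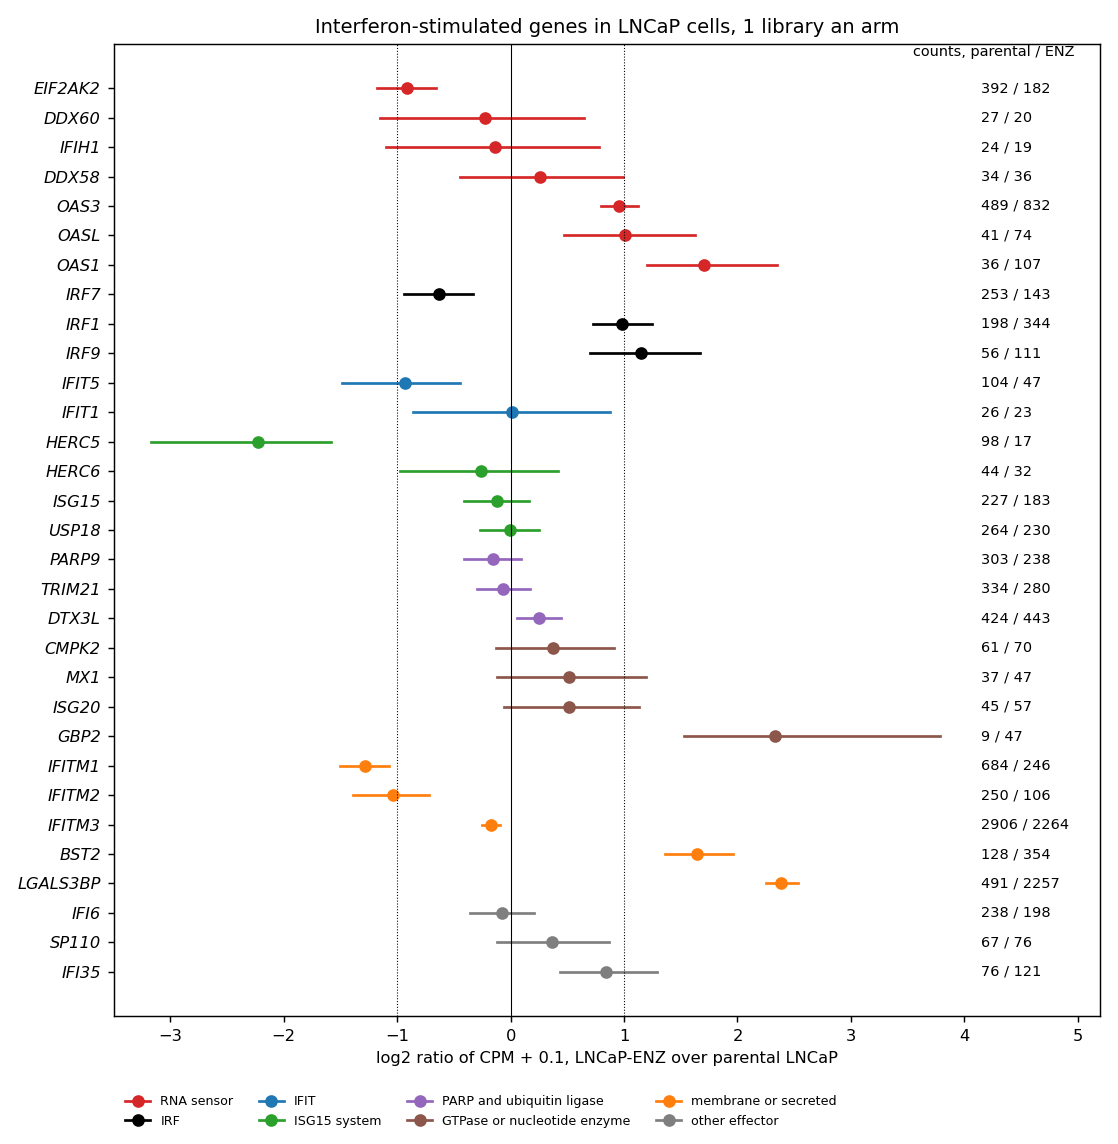
The 31 members with a mean of at least 1 CPM in LNCaP cells, grouped by role, with the log2 ratio of CPM + 0.1 (LNCaP-ENZ over parental) as points, the 95% exact interval of the split of counts as bars and the counts of both libraries at the right. Dotted lines mark 2-fold; 6 points lie beyond the right and 3 beyond the left one, and the bars cover counting error only.

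Of the pathway lists, 31 of 61 genes passed 1 CPM in LNCaP cells, and 0 were at least 2-fold higher and 2 at least 2-fold lower, with a median log2 ratio of -0.17. IFNAR1, a subunit of the receptor for type I interferons, had 1275 and 554 counts (log2 ratio -1.01, -1.16 to -0.87), and PIAS1, an inhibitor of STAT signalling, had 927 and 389 counts (log2 ratio -1.06, -1.24 to -0.89). Both lay close to 2-fold on the CPM scale, and the other scalings given above raise the log2 ratios. STAT2 had 1198 and 1075 counts (log2 ratio 0.03, -0.09 to 0.15). JAK1 had only 64 and 56 counts. Of the 45 further interferon-responsive genes, 29 passed 1 CPM and had a median log2 ratio of 0.14. Among these 29, 19 were higher and 10 lower. At least a 2-fold difference was found for 4 upward and 0 downward, against 1.84% and 9.57% of all genes compared. The 4 were APOL1 with 18 and 100 counts, APOL6 with 51 and 247 counts, PARP10 with 63 and 142 counts and BATF2 with 15 and 30 counts. GBP4, under the filter, had 0 and 25 counts, at least 9.50-fold higher against the floor of 3 counts in the parental library, and TNFSF10, the death ligand TRAIL, also under the filter, had 29 and 8 counts (log2 ratio -1.47, -3.01 to -0.50).

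Placed side by side, the contrasts had 29 members past both filters. In 14 of them the value was lower in shPAX6 and higher in LNCaP-ENZ cells, in 14 lower in both, in 1 (BST2) higher in both, and in 0 higher in shPAX6 and lower in LNCaP-ENZ cells. OAS1, OASL, LGALS3BP, MX1 and OAS3 belonged to the first set, and IFITM2, IFITM3, IRF7 and HERC5 to the second. The contrasts share no library, but they differ in cell line, perturbation and table, and the split follows the scaling of the LNCaP libraries given above. Over all features tested in DU145, 62.9% were lower in shPAX6 cells, and the matching split over all genes in both contrasts is not given here. The list was selected on both contrasts, so nothing is read from these counts.

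**Figure D4:**
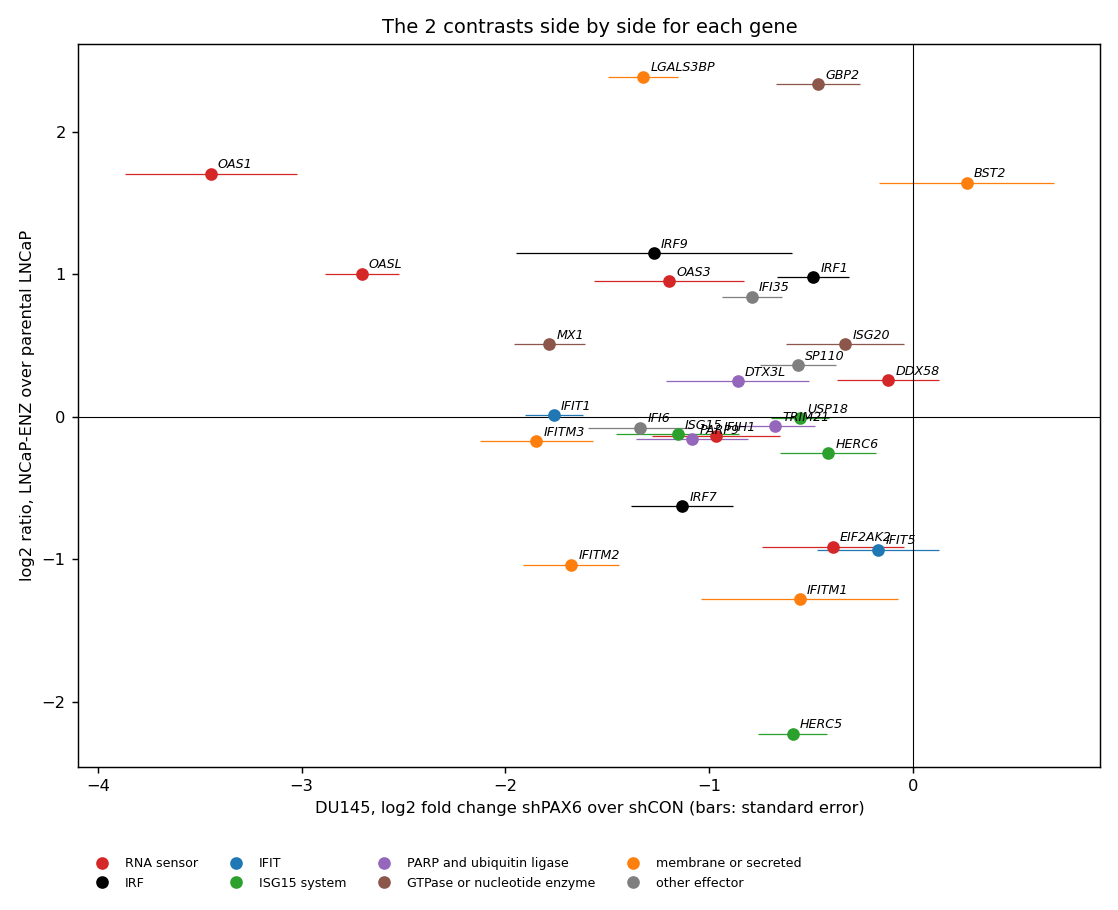
Log2 fold change of shPAX6 over shCON in DU145 cells (horizontal, bars are standard errors of limma) against the log2 ratio of LNCaP-ENZ over parental LNCaP (vertical, 1 library an arm) for the 29 members past both filters. All points but BST2 lie left of 0, while they spread above and below 0 on the vertical axis, from 2.39 (LGALS3BP) to -2.22 (HERC5).

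The third comparison set the basal level of the members in DU145 shCON cells beside that in parental LNCaP cells. The tables come from separate processing, and structural small RNAs (RN7SK, RPPH1, RN7SL1, RMRP and RN7SL2) took 58.4% of the parental LNCaP TPM (reads per transcript length, scaled to one total per library) and are not listed for DU145. On TPM as deposited, 41 of 48 members were higher in DU145, but the 10074 genes at 1 TPM or more in both lines were also higher by a median log2 difference of 1.36. TPM was therefore recomputed over the 18702 protein-coding genes that both tables list, a choice made after seeing the data. On that scale 36 members were higher in DU145 and 12 in LNCaP cells, and by percentile within the library 38 and 10. Of the 42 members at 1 TPM or more on that scale in at least 1 line, 27 were at least 2-fold higher in DU145 and 4 (IFITM1, BST2, CMPK2 and IFITM3) at least 2-fold higher in LNCaP cells, against 23.4% and 33.0% of 13299 genes. Their median log2 difference was 1.64, against -0.25 over all those genes. The shCON libraries are also those of the knockdown contrast on which the list was selected. Members under 1 TPM in LNCaP cells passed this filter only through their level in DU145, so nothing is read from these shares. Cell line, table and processing cannot be told apart in this comparison.

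The members highest in DU145 relative to LNCaP cells were effectors. PLSCR1, a phospholipid scramblase, was at 42.7, 34.0 and 42.1 TPM over shared genes in the shCON libraries and at 0.463 TPM in parental LNCaP cells. IFIT1 was at 54.3, 50.9 and 54.0 TPM against 0.938 TPM, UBE2L6 at 54.3, 56.8 and 57.0 TPM against 1.08 TPM, and IFIT3 at 32.2, 31.0 and 31.9 TPM against 0.901 TPM. In these 4 genes the shCON libraries differed little from each other, and each lay over 30 TPM above the LNCaP value. At the other end, IFITM1 was at 3.78, 2.17 and 1.29 TPM in shCON and at 163 TPM in parental LNCaP cells. BST2 was at 2.83, 2.66 and 1.35 TPM against 21.4 TPM, CMPK2, a mitochondrial nucleotide kinase, at 0.303, 0.0379 and 0.298 TPM against 2.51 TPM, and TRIM22, a ubiquitin ligase, at 0.0714, 0.0433 and 0 TPM against 0.993 TPM. IFITM3 was the most abundant member in LNCaP cells, at 742 TPM against 81.3 to 106 TPM in shCON. IFITM2, next to it on chromosome 11, was at 58.4 TPM against 86.0 to 97.6 TPM. As given above, the split of reads between these paralogues is uncertain. The tables also come from separate processing, so the order of IFITM2 and IFITM3 is not compared between the lines.

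By class, the median log2 difference over shared genes, DU145 minus LNCaP, was 1.54 over the 8 sensors, 1.94 over 31 effectors and 0.48 over the 3 IRFs. At least a 2-fold higher level in DU145 was found for 6 of 8 sensors, 20 of 31 effectors and 1 of 3 IRFs. The share over all genes compared was 23.4%, and with the limits given above nothing is read from these counts. OASL was at 33.7 to 43.3 TPM in shCON and at 3.35 TPM in LNCaP cells, while EIF2AK2 was at 9.84 to 15.2 TPM and at 15.4 TPM. DDX58 was at 4.28 to 5.10 TPM against 1.22 TPM and IFIH1 at 3.29 to 4.86 TPM against 1.14 TPM. IRF1 was at 24.6 to 34.6 TPM against 9.50 TPM. IRF7, at 15.7 to 23.7 TPM against 20.2 TPM, and IRF9, at 2.84 to 17.4 TPM against 5.69 TPM, had LNCaP values inside the range of the shCON libraries. The rank of a member within its line also differed. The median percentile of the 48 among the shared genes was 38.3 in parental LNCaP and 54.2 in DU145 shCON cells, and 17 members were under 1 TPM in parental LNCaP cells against 7 in shCON cells.

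**Figure D5:**
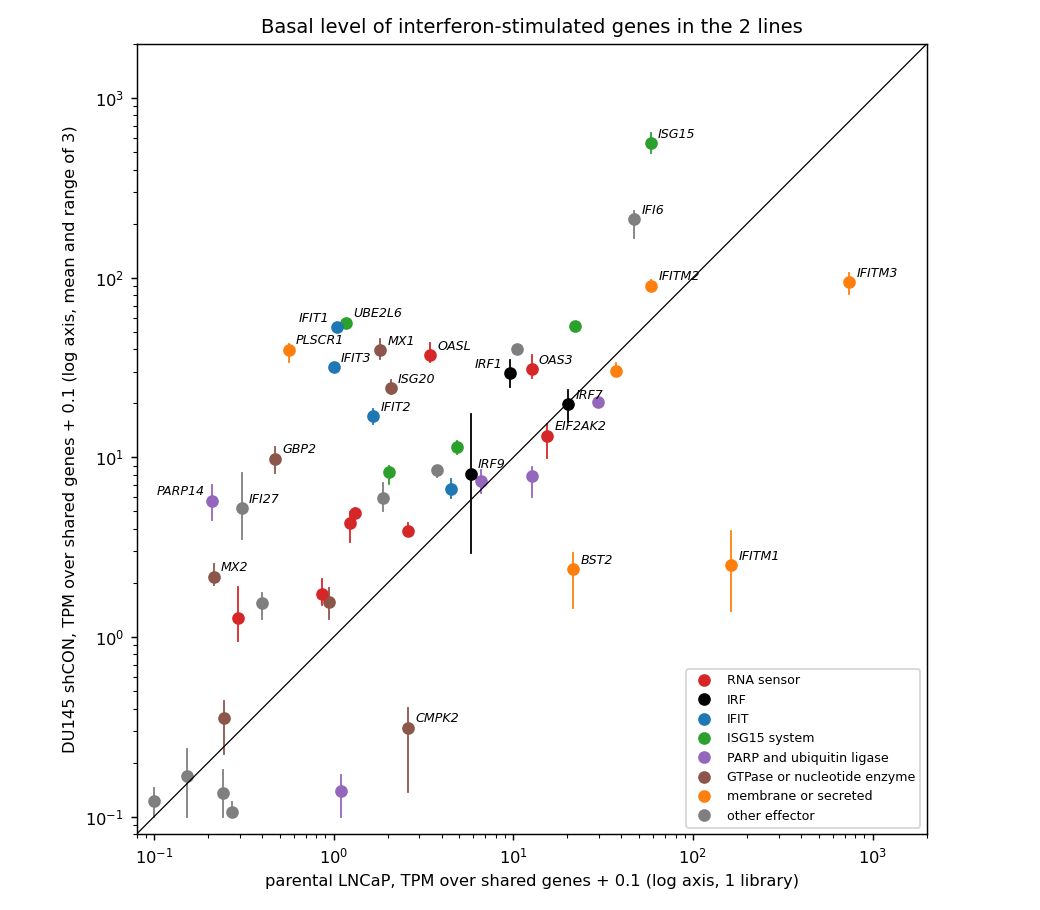
Basal level of the 48 members in parental LNCaP cells (horizontal, 1 library) and in DU145 shCON cells (vertical, mean as a point and range of 3 libraries as a bar), both as TPM over shared protein-coding genes + 0.1 on log axes, with the line of equality. Most points lie above the line, with PLSCR1, UBE2L6 and IFIT1 farthest above it and IFITM1, BST2 and CMPK2 among those farthest below.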

How the data were processed

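RNA-seq of 8 libraries was used; 6 ATAC-seq samples were not analysed here. Per the study's methods, the authors used HISAT2 for alignment (GRCh37) and StringTie for quantification; the submitters' processing notes also name STAR, versions are not given in the sources used here, and the labels describe more than one library kit. For LNCaP cells the authors deposited raw counts and TPM for 1 library an arm, whereas for DU145 they deposited 1 value per feature and library whose unit the header does not name and which was taken as FPKM from its range. Whole reads could not be recovered from it (at most 1.26% of ratios of 478 low genes fell in 1 bin), so its depth is unknown.

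DU145 values were tested as log2(FPKM + 0.1) with limma 3.58.1 (R 4.3.3; trended empirical Bayes, Benjamini-Hochberg adjustment over all features, threshold 0.05) after a filter on the mean of at least 0.5 FPKM; fold changes on this scale understate those of low genes. LNCaP counts were scaled to CPM and compared as a log2 ratio with a pseudocount of 0.1 among genes with a mean of at least 1 CPM, with intervals from the exact split of counts, without the pseudocount. Intervals and floors cover counting error only. TMM factors came from edgeR 4.0.16 and size factors from DESeq2 1.42.0, and Python 3.11.15 with scipy 1.17.1 was used otherwise. The limma and interval steps were tested on simulated data.

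The members, the lists and their roles were chosen with earlier results of these data known. Values by library are given for the 8 members with the largest change past the filter in each contrast, the IRFs, DDX58, IFIH1, EIF2AK2 and the 4 members at each end of the baseline comparison, and further values were named after they were seen. Of the listed genes outside the members, those past the test or 2-fold, STAT2, JAK1 and the largest changes in each direction are named; CGAS, PTPN6, IRF5, GBP4 and TNFSF10 were added after their values were seen. The replicate numbers were tested as pairs as an alternative only. Some listed genes and line markers are not reported here.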

Additional observations from a re-analysis of the deposited data

How the results depend on the processing

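In DU145 cells the count of members called by limma, all of them lower, was 10. It was 6 with no filter on low values, and it ranged from 0 to 17 when 1 library was left out, with 0 calls without shCON replicate 1 or 3 and 17 without shPAX6 replicate 2. Samples with the same replicate number did not deviate together (correlations of -0.166, -0.366 and 0.0519), so the numbers were not taken as pairs. With the replicate block, 0 members and 0 of all features were called (24 members and 1568 features at an unadjusted p under 0.05), and with the block and a GC correction 2 members were called. Pseudocounts, a stricter filter, other scalings, no trend and the GC correction gave 7 to 13 calls, all lower. In LNCaP cells 9 members were past 2-fold, 6 higher and 3 lower. With a mean of at least 5 CPM required these were 4, 2 and 2, since 16 members were compared, and with members down to the floor 5 were lower, since 45 were compared. Several members near 2-fold crossed it under the alternatives, which include other scalings. The log2 ratio of IFITM2 ran from -1.12 to -0.86, that of OASL from 0.77 to 1.17 and that of IRF9 from 0.94 to 1.32. OAS3 ran from 0.85 to 1.13, IRF1 from 0.88 to 1.15 and IFI35 from 0.72 to 1.01. In the baseline comparison over all 48 members, those at least 2-fold higher in LNCaP cells were 5 on TPM as deposited and 6 on TPM over shared genes; on TPM as deposited they were 3 with a pseudocount of 1 and 8 with the median of genes expressed in both lines set equal. Promoters of 28 members held the ISRE core, and 22 to 34 did under the other definitions. No single member past the threshold changed sign under any alternative that was run. In DU145 cells depth is unknown, and in LNCaP cells 3 members were at or under 3 counts in both libraries.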
